A study of Mus musculus with 4 samples.

Results

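Methylated DNA captured from regulatory T cells (Treg) was compared with that captured from T helper 1 cells (Th1), over all 10000 regions of the deposited table and its 5377 gene identifiers. These are 2 of the 4 populations of the series, with 1 library each. Both were isolated from lymph nodes and spleens of Balb/c females, an inbred mouse strain, and the labels do not say how many animals were pooled. Treg cells were sorted as CD3+CD4+CD25++ and then stimulated for 3 h with PMA, a phorbol ester, and ionomycin, a calcium ionophore, with no dose given for that step. Th1 cells were stimulated first, for 3 h (10 ng/ml PMA, 500 ng/ml ionomycin), and then sorted as CD3+CD4+CD45RB low cells that secreted interferon gamma and no IL-17A. The order of stimulation and sorting and the depth of the library therefore differed together with the cell type, and the 3 cannot be told apart here. With 1 library a side, every interval below covers counting error only and no difference has a replicate check.

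Treg cells restrain other T cells and depend on the transcription factor FOXP3, whose stable expression in mice is tied to loss of methylation at a conserved intronic element of its gene. Th1 cells are effectors of type 1 immunity that depend on T-bet and STAT4 and secrete interferon gamma, whose locus loses methylation as they differentiate. Capture with a methyl-CpG binding domain pulls down DNA fragments that carry methylated CpG pairs, so that a region needs both CpG pairs and methylation to be read. More reads in a region therefore stand for more captured fragments, not for a methylation level per CpG. No region analysed here carried the names Foxp3, Ifng or Tbx21, so the population labels could not be checked against these loci.

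The capture binds CpG pairs, and promoters differ widely in how many they hold. The 4 promoter windows below belong to the genes whose captured region leaned most to either library among 37 promoter regions. These 37 had a middle within 500 bp of the start site and exactly 1 window in the reference, on the same chromosome. Their offset between the builds was also within 3 kb of that of at least 1 of the 5 nearest such regions. Promoter regions that leaned more to Treg but failed one of these criteria were not used. They are RefSeq windows of 300 bases (250 before the start and 50 after it) of build GRCm38.p6, matched by gene name, and capitals mark each CG pair. The regions themselves are in mm9. Their deposited middle differences, taken as bp from the start site, were 418, 0, -258 and 235 in the order below. On these distances only the Nkpd1 middle lay inside its window, and the 9330198N18Rik and Olfr1387 regions lay wholly past the end of theirs. How far the Nkpd1 and Prss28 regions overlap their windows was not checked. The first pair leaned to Treg: 9330198N18Rik at chr2:30629309-30629608 and Nkpd1 at chr7:19518481-19518780. The second pair leaned to Th1: Prss28, a serine protease gene, at chr17:25308396-25308695 and the olfactory receptor gene Olfr1387 at chr11:49459431-49459730. All 4 are given on the plus strand.
9330198N18Rik: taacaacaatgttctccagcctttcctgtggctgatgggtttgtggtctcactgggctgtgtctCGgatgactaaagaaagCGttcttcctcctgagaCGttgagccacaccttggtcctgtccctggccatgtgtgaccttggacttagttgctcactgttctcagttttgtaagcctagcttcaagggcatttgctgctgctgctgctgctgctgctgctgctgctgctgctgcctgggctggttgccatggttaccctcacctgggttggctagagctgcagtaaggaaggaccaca
Nkpd1: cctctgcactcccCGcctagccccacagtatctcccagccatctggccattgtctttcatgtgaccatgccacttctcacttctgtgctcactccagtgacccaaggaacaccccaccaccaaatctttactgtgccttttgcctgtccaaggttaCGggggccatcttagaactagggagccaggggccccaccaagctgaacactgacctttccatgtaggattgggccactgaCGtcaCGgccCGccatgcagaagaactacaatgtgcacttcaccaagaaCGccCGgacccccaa
Prss28: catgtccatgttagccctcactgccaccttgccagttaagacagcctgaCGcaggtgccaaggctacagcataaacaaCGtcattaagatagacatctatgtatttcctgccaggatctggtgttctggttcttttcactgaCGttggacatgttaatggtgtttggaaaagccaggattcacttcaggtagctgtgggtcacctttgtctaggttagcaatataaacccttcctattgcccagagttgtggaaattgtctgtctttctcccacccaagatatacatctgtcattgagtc
Olfr1387: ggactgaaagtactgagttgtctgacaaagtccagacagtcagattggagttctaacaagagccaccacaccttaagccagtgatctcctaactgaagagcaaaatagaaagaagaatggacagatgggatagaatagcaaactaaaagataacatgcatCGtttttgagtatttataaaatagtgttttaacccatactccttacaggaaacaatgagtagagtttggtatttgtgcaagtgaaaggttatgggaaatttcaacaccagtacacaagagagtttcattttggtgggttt

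These windows held 3, 7, 3 and 1 CG pairs in the order shown. Among 32851 reference windows of the same length, the median was 7 with quartiles of 3 and 20, 94.6% held at least 1 CG pair (CG reads the same on both strands) and 31.4% held 3 or fewer. The 9330198N18Rik region held 11 Treg reads and no Th1 read, and the Nkpd1 region, over exon 1, held 12 and 1. The Prss28 region held 3 Treg and 5 Th1 reads, and the Olfr1387 region, also over exon 1, held 5 and 4. The Prss28 ratio of Treg to Th1 values was 0.126 with an interval of 0.0195 to 0.647. That of Olfr1387 was 0.262 (0.0564 to 1.32) and that of Nkpd1 was 2.52 (0.372 to 108), so equality lay outside the interval for Prss28 alone among the 4. The windows on either side thus included CpG-poor ones, but these counts are of the windows and not of the captured regions. Of the 477 promoter regions only 272 (57.0%) could be given a window, too few to set CpG content against the ratio over the whole class.

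The table as a whole was read far more deeply in Treg than in Th1. The Treg library held 74571 reads in these regions, each worth 0.352 on the deposited scale, and the Th1 library held 19548, each worth 1.68. A region had a median of 7 Treg reads (quartiles 5 and 9, highest 25) and 2 Th1 reads (quartiles 1 and 3, highest 9). Both libraries had reads in 8750 regions, only Treg in 1225, only Th1 in 21 and neither in 4. A library without a read could hold up to 3 reads by counting error, which is 1.06 for Treg and 5.04 for Th1 on the deposited scale. Reads in the 2 libraries hardly moved together across regions (Pearson's r = 0.02, Spearman's rank correlation = 0.02, over 10000 regions of the same 2 libraries). Mean Treg reads were 7.21 in the 1229 regions without a Th1 read, 7.36 with 1, 7.62 with 2, 7.63 with 3, 7.25 with 4, 7.13 with 5 and 8.39 in the 98 regions with 6 or more, with no steady order. Mean naive reads in the same 7 classes were 4.08, 3.74, 3.36, 3.05, 2.82, 2.62 and 2.88. Of the rows, 78.3% had the same Th1, naive and Treg reads as the next row, so the order of the table follows its values. The sources used here do not say how its rows were chosen, and the part of that choice in any Treg to Th1 ratio was not tested.

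**Figure D1:**
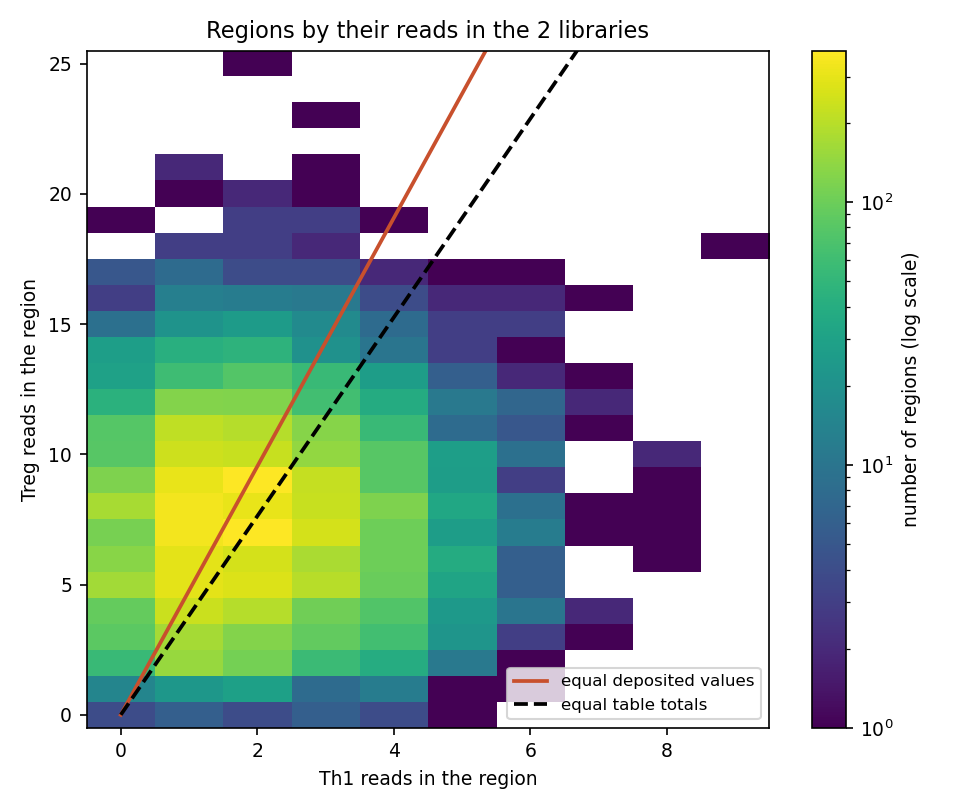
Number of regions (colour, log scale) for each pair of Th1 reads (x axis) and Treg reads (y axis), with the line of equal deposited values (solid) and that of equal table totals (dashed). The quartile ranges of 1 to 3 Th1 reads and 5 to 9 Treg reads jointly hold 4265 regions (42.7%), and no clear slope joins the 2 counts.

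On the deposited scale the Th1 library stood higher over the table. The mean value per region was 2.63 in Treg and 3.29 in Th1, a ratio of summed values of 0.800 (0.787 to 0.813), or -0.32 on the log2 scale. The 2 constants imply a Treg depth 4.77 times that of Th1, whereas the reads in the table stood at 3.81 to 1. Setting the table totals equal therefore shifts every log2 ratio by 0.32 towards Treg, and both scalings are given where the shift changes a statement. The median log2 ratio of a region, with a pseudocount of 0.5 added to both values, was -0.22 as deposited and 0.06 at equal totals.

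By size alone, many regions differed in both directions. At the deposited scaling 1701 regions (17.0%) were at least 2-fold higher in Treg and 2096 (21.0%) at least 2-fold higher in Th1, again with the pseudocount of 0.5. At equal totals the split turned, to 2261 (22.6%) in Treg and 1522 (15.2%) in Th1. These counts follow the reads closely: a region without a Th1 read passed the 2-fold rule with 2 Treg reads, and one with 1 Th1 read needed 11. A stricter rule asked that the exact 95% counting interval of the ratio exclude equality. It called no region higher in Treg (0%) and 283 (2.83%) higher in Th1 at the deposited scaling, and 9 (0.0900%) and 159 (1.59%) at equal totals. A region without a Th1 read would have needed 20 Treg reads to be called at the deposited scaling, and the highest such region had 19. One with 1 Th1 read would have needed 29, above the 25 reads of the deepest Treg region. No region of the table thus reached a call on the Treg side at the deposited scaling, whereas 9 did at equal totals with the same reads. The 2-sided exact binomial test, which compares the 2 libraries and not the cell types, called no region after Benjamini-Hochberg adjustment over all 10000. Its smallest adjusted p was 0.656 at the deposited scaling, where 0 regions on the Treg side and 283 on the Th1 side had an unadjusted p below 0.05. At equal totals the smallest adjusted p was 1, with 6 and 159 such regions.

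The regions that leaned most to Treg lay in genes of varied function, and all were unread in Th1. An intron of Plekha7, which encodes an adherens junction protein (chr7:123270342-123270664), held 19 Treg reads, a value of 6.70, and no Th1 read. The interval of its Treg to Th1 ratio began at 0.979 at the deposited scaling and at 1.22 at equal totals, on either side of equality. Introns of Lgr5 (a receptor for R-spondins in Wnt signalling), Slc39a11 (a zinc transporter), Mrc1 (the macrophage mannose receptor) and Inpp5a (an inositol phosphatase) each held 17 Treg reads and no Th1 read. Their intervals began at 0.865 as deposited and at 1.08 at equal totals. The Lgr5 region lies at chr10:115019016-115019251 and the Mrc1 region at chr2:14231123-14231373. Introns of Map2k6, a kinase upstream of p38, and Mical3 and exon 3 of Net1, a guanine nucleotide exchange factor, held 16 Treg reads and none in Th1. Their equal-totals intervals began at 1.01. These 8 regions are among the 9 called in Treg at equal totals. Exon 10 of Plekha6, exon 3 of the hair keratin gene Krt33a and an intron of Npas3, a neuronal transcription factor, followed with 15 Treg reads and none in Th1, and with equal-totals intervals that began at 0.940.

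The regions that leaned most to Th1 were intronic in 11 of the 12 genes named, and several were unread in Treg although that library was deeper. An intron of Bmp2k, a BMP-inducible kinase gene (chr5:97483193-97483452), held no Treg read and 5 Th1 reads, a value of 8.40. The interval of its Treg to Th1 ratio reached 0.229 as deposited and 0.286 at equal totals, and it had the smallest p of the table (0.000156 by the exact binomial test, 0.656 after Benjamini-Hochberg adjustment). An intron of Kctd8, a subunit of GABA-B receptors (chr5:69672062-69672357), held 1 Treg read and 6 Th1 reads, values of 0.352 and 10.1, a Treg to Th1 ratio of 0.0349 (0.000760 to 0.288). Introns of Zbbx, of Nfia, which encodes a nuclear factor I protein, of the predicted gene Gm15710 and of the sperm protein gene Adam3 held no Treg read and 4 Th1 reads each, with intervals that reached 0.318 and 0.397. Lpp, a focal adhesion protein gene, held 1 and 5, and Plcl2, a phospholipase C-like protein gene, held 2 and 6. Their ratios were 0.0419 (0.000887 to 0.375) and 0.0699 (0.00690 to 0.391).

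More deeply read regions also stood on the Th1 side. An intron of Ryr2, the cardiac calcium release channel (chr13:11777157-11777485), held 3 Treg and 7 Th1 reads, a ratio of 0.0899 (0.0150 to 0.394). An intron of Asap1, a GTPase-activating protein for Arf (chr15:64165822-64166130), and exon 89 of Dync2h1, the heavy chain of the ciliary dynein (chr9:6928572-6928873), held 4 and 7 reads each, a ratio of 0.1198 (0.0257 to 0.471). An intron of Vps13d, a lipid transfer protein gene, held 3 and 6. All 12 had intervals below equality at both scalings. In the plot of the named regions by library, each Treg interval on the Treg side overlaps the wide interval of an unread Th1 region. On the Th1 side the 2 intervals do not overlap. The regions were selected by how far their ratio interval lies from equality, so the plot restates that selection and adds no further evidence.

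**Figure D2:**
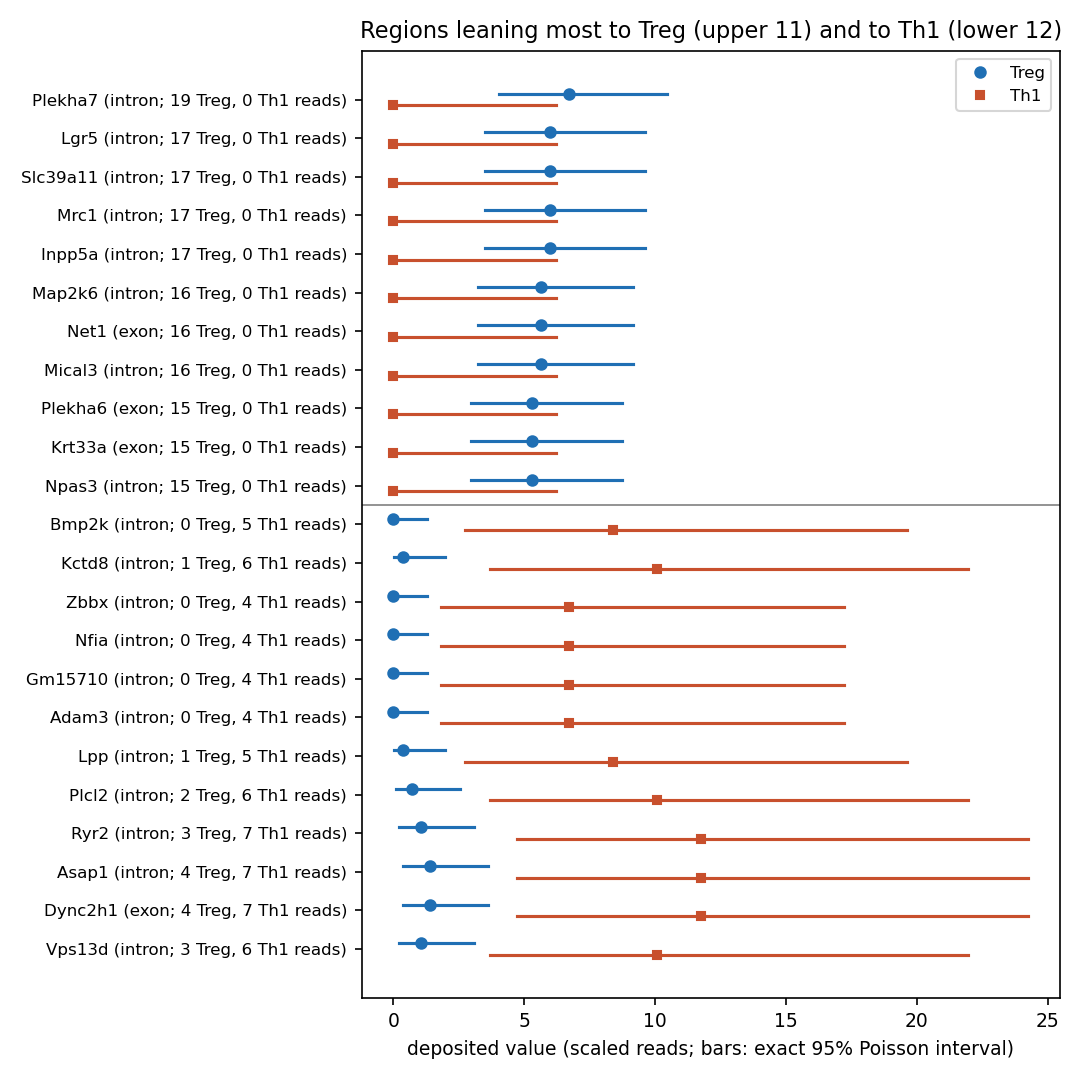
Deposited value (x axis, scaled reads) of 11 of the regions that leaned most to Treg and the 12 that leaned most to Th1, for Treg (circles) and Th1 (squares), with exact 95% Poisson intervals for 1 library each. Treg intervals overlap the Th1 interval in the upper 11 regions, where Th1 had no read, and lie below it in the lower 12. Both sets were selected by their ratio intervals.

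The 283 regions called in Th1 were spread over the genome. They comprised 16 promoter, 38 exon and 229 intron regions (80.9% intronic, against 78.7% of all regions) with a median length of 274 bp, against 249 bp overall. They fell in 273 genes, and 11 of them had no Treg read. Of these genes 10 had 2 called regions each: Asap1, Flt1 (a VEGF receptor), Kcnip4 and Mapk10 (both neuronal), Phactr1, Plcl1, Plcl2, Sdk1, Sh3rf3 and Wbscr17. Asap1, Plcl1 and Wbscr17 also had 2 among the 159 called at equal totals.

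Summing the reads of a gene gave more depth per item. Of 930 genes with 3 or more regions, 3 (0.323%) had a counting interval above equality in Treg and 70 (7.53%) in Th1 as deposited, and 13 (1.40%) and 17 (1.83%) at equal totals. The smallest p over all 5377 genes, adjusted over that full set, was 0.218 by the exact binomial test at the deposited scaling. Ddah1, whose product degrades asymmetric dimethylarginine, had 3 intronic regions within 22.2 kb of chromosome 3 with 15, 7 and 4 Treg reads and none in Th1. Its mean Treg value was 3.05 per region and its interval began at 1.38. Mrc1 had 29 Treg reads and 1 Th1 read over 3 regions, a ratio of 6.08 (1.01 to 248). Both genes were among the 3 above equality as deposited, and in each the Treg reads were spread over every region.

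The next genes on the Treg side passed at equal totals only. Gpr126, an adhesion receptor needed for myelination, held 36 Treg and 2 Th1 reads over 4 regions, and the cell adhesion gene Cadm1 held 62 and 6 over 7. Their deposited ratios were 3.77 (0.972 to 32.4) and 2.17 (0.941 to 6.13). Pebp4 (41 and 3), the cardiac myosin gene Myh7 (34 and 2) and Lrrc16a, a regulator of actin capping (39 and 3), likewise had intervals that began between 0.867 and 0.914 as deposited and above 1 at equal totals. None of these 5 genes had a region 2-fold higher in Th1.

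Genes on the Th1 side held more Th1 reads and so had narrower intervals. Utrn, the gene of the dystrophin relative utrophin, had 4 intronic regions on chromosome 10 with 2, 6, 2 and 10 Treg reads and 3, 4, 4 and 5 Th1 reads. All 4 were at least 2-fold higher in Th1, and the summed ratio was 0.262 (0.129 to 0.541). Asap1 had 6 intronic regions on chromosome 15 with 1, 10, 3, 4, 8 and 5 Treg reads and 4, 5, 3, 7, 0 and 2 Th1 reads, a ratio of 0.310 (0.172 to 0.567). Its regions did not all lean alike: 4 were at least 2-fold higher in Th1 and 1, unread in Th1, in Treg. Ltbp1, which encodes a binding protein of latent TGF-beta, had 5, 4 and 4 Treg reads and 5, 3 and 3 Th1 reads in 3 introns, a ratio of 0.248 (0.102 to 0.611). Plcl1 had 33 Treg and 20 Th1 reads over 8 introns, a ratio of 0.346 (0.193 to 0.636), with 4 regions 2-fold higher in Th1 and none in Treg. Snd1, a nuclease of RNA silencing, had the most reads of the group, 59 in Treg and 29 in Th1 over 8 regions, and a ratio of 0.427 (0.269 to 0.690). Sardh (11 and 10), Spsb1 (17 and 12) and Col24a1 (13 and 10) completed the 8, with ratios from 0.231 to 0.297. All 8 stayed below equality at equal totals. Among the genes with the most regions, Fgfr2 had 39 with 263 Treg and 68 Th1 reads, a ratio of 0.811 (0.619 to 1.08), near the table's 0.800. AC114005.5 had 27 with 219 and 39 reads, a ratio above that of the table, at 1.18 (0.835 to 1.70) and 1.47 (1.04 to 2.13) at equal totals. Their regions spanned 2885.5 and 3829.1 kb, and the assignment to these genes is the deposited table's. Genes with 10 or more regions together exceeded those with 1 region by 0.11 (0.02 to 0.20) on the log2 scale.

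**Figure D3:**
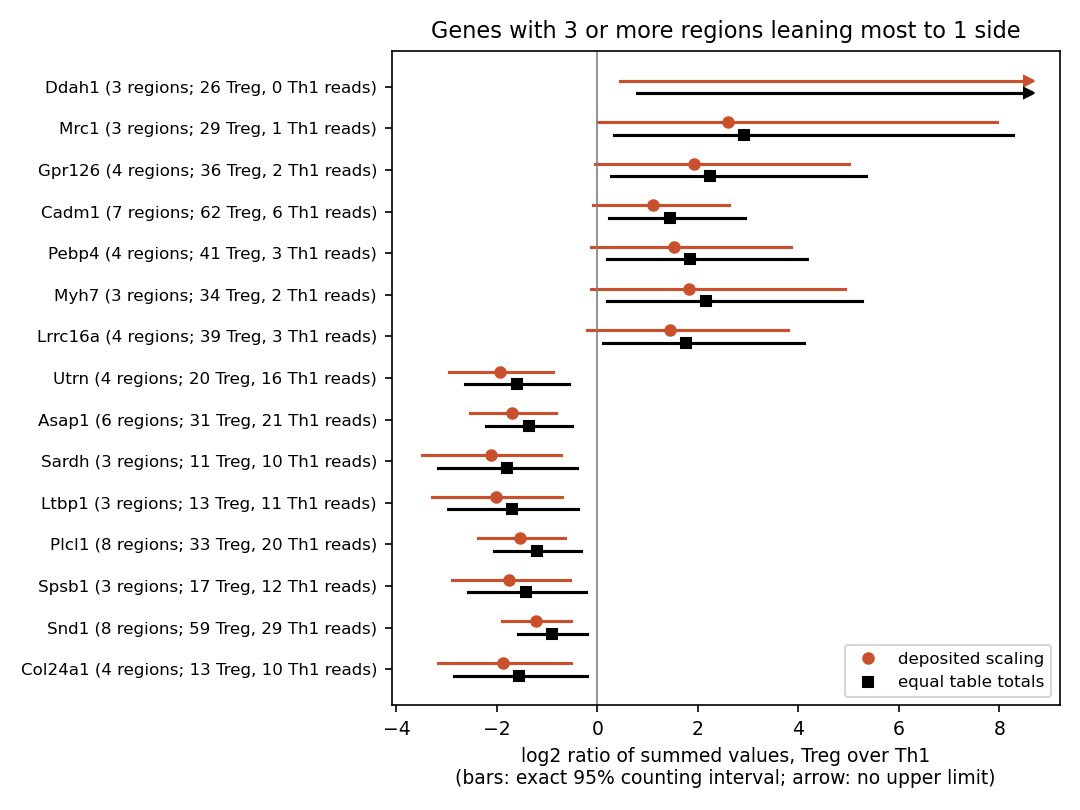
Treg to Th1 ratio of summed values (x axis, log2) for genes with 3 or more regions that leaned most to 1 side (7 to Treg and 8 to Th1), at the deposited scaling (circles) and at equal table totals (squares), with exact 95% counting intervals. Ddah1 had no Th1 read and so no upper limit, and the 8 Th1-side genes lie below 0 at both scalings.

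Location classes differed from one another by small amounts. Promoters (477 regions) had a mean value of 2.71 in Treg and 3.30 in Th1, exons (1658) 2.88 and 3.43, and introns (7865) 2.57 and 3.26. The log2 ratios were -0.29 (-0.39 to -0.18), -0.25 (-0.30 to -0.19) and -0.34 (-0.37 to -0.32), all toward Th1. At equal totals they were 0.04, 0.07 and -0.02, so the side of each class depends on the scaling. Differences between classes do not, since any scaling cancels, and 17 such pairs were compared by Wald intervals on the counts, without adjustment. Exons leaned to Treg relative to introns by 0.09 (0.03 to 0.15) on the log2 scale, whereas promoters and introns differed by 0.06 (-0.05 to 0.16). Within 4 classes of length the exon difference, from shortest to longest, was 0.01 (-0.12 to 0.15), 0.11 (-0.02 to 0.24), 0.12 (0.003 to 0.24) and 0.12 (0.02 to 0.23). The intervals of the shortest and second classes included 0.

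The length of a region went with its ratio. The log2 ratio fell from -0.21 in the shortest quartile class through -0.30 and -0.34 to -0.40 in the longest, a difference of -0.19 (-0.26 to -0.13) between the ends. Mean values rose with length in both libraries, from 2.24 to 3.05 in Treg and from 2.58 to 4.03 in Th1. Among introns the difference between the ends was -0.22 (-0.29 to -0.14), and among exons -0.11 (-0.26 to 0.05). The sources used here do not say how region bounds were set, and the part of depth in this relation was not tested.

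Promoter regions that lay downstream of the start site or shortly before it stood toward Treg relative to the other promoters. The 147 promoter regions whose deposited middle difference was -250 or above had 1219 Treg and 271 Th1 reads, a log2 ratio of -0.08 (-0.28 to 0.11). The 121 just below that, down to -1000, had -0.40 and the 209 below -1000 had -0.36. The first class, which runs on to a middle difference of 644 and so is not the set nearest the start, exceeded the other promoters by 0.29 (0.06 to 0.52) and introns by 0.26 (0.07 to 0.45) on the log2 scale. In it 35 regions (23.8%) were 2-fold higher in Treg and 20 (13.6%) in Th1, against 17.0% and 21.0% of all regions. The middle difference is taken here as the distance in bp from the start site, as its sign and the location column imply, which no header states.

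Chromosomes varied little. Chromosome X, with 200 regions, had a log2 ratio of -0.39 and the autosomes -0.32, a difference of -0.07 (-0.24 to 0.09). Chromosome 14 was the one nearest to Treg, at -0.14, and exceeded the others by 0.19 (0.07 to 0.31), but it was picked after the chromosomes had been seen. Of 380 windows of 5 Mb with at least 10 regions, 8 had 95% counting intervals above equality and 10 below it, at equal totals. The log2 ratios of the windows ran from -0.80 to 0.75. The intervals were not adjusted for the 380 windows compared, and counting error alone leaves some 95% intervals off equality. The 8 and 10 windows therefore do not by themselves show regional differences. The window nearest Th1 was the first 5 Mb of chromosome 11, with 127 Treg and 58 Th1 reads in 22 regions. Among windows off equality, the one nearest Treg was 100 to 105 Mb of chromosome 15, with 160 and 25 reads in 16 regions. Both windows were picked as extremes after all windows had been seen. The spread of the ratio over regions was 1.02 times that of counting error alone, 1.09 among promoters, 0.967 among exons and 1.03 among introns. It was 1.08 times over genes with 3 or more regions and 1.07 times over the 5 Mb windows, so little spread remained once counting error was taken into account.

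**Figure D4:**
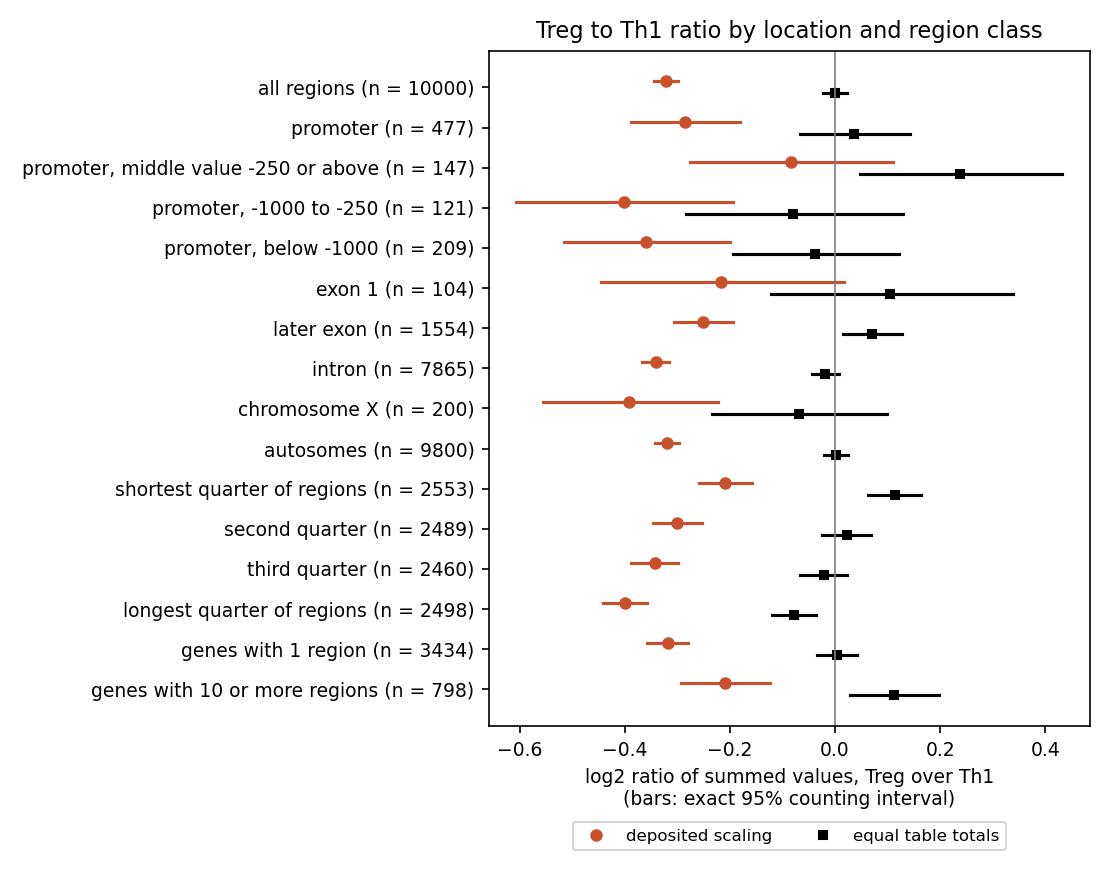
Treg to Th1 ratio of summed values (x axis, log2) by location, distance to the start site, chromosome, length class and number of regions per gene, at the deposited scaling (circles) and at equal table totals (squares), with exact 95% counting intervals. Equal totals moves every class by 0.32, and the length classes step from -0.21 to -0.40 at the deposited scaling.

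Genes that define the 2 populations were thinly covered and lay near the table. Of 25 Treg genes, 4 had a region, with 23 Treg and 5 Th1 reads in all, a log2 ratio of -0.05 (-1.48 to 1.70). Exon 14 of Itgae, the CD103 integrin chain (chr11:72931905-72932336), held 9 and 2 reads, and an intron of the semaphorin coreceptor gene Nrp1 held 5 and 0. Introns of Tnfrsf9, the costimulatory receptor 4-1BB, and Socs2, a suppressor of cytokine signalling, held 6 and 2 and 3 and 1. Nrp1 alone of the 4 passed the 2-fold rule, toward Treg (25%, against 17.0% of all regions), and no interval excluded equality. Of 31 Th1 genes, 5 had a region, with 50 Treg and 12 Th1 reads and a log2 ratio of -0.19 (-1.12 to 0.85). Introns of the IL-18 receptor gene Il18r1 and the transcription factor gene Runx3 held 10 Treg reads and 1 Th1 read each, values of 3.53 and 1.68. An intron of Stat4, which carries IL-12 signals, held 15 and 5 (values 5.29 and 8.40), exon 4 of the granzyme gene Gzmb held 8 and 2, and the IL-27 receptor gene Il27ra held 5 and 2 in exon 8 and 2 and 1 in an intron. None of the 6 regions passed the 2-fold rule as deposited, against 17.0% of all regions toward Treg and 21.0% toward Th1. At equal totals 2 did, toward Treg, against 22.6% of all regions.

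Regulators of Treg identity had a ratio above that of the table. Of 36, 14 had 23 regions in all, with 208 Treg and 38 Th1 reads, and 4 regions (17.4%) were 2-fold higher in Treg and 1 (4.35%) in Th1, against 17.0% and 21.0% of all regions. The log2 ratio was 0.20 (-0.31 to 0.74) as deposited and 0.52 (0.02 to 1.06) at equal totals. Their median region stood at 0.26, or 0.07 with the 2 regions unread in Th1 set at 3 reads, against -0.22 and -0.52 for all regions. An intron of Prdm1, which encodes BLIMP1 (chr10:44203998-44204336), held 14 Treg reads and none in Th1, a value of 4.93 that is below the worth of 3 Th1 reads. Its second region held 5 and 1. Rptor, the mTORC1 scaffold, had 6 regions from 9 and 0 reads to 7 and 4, the latter being the 1 region 2-fold higher in Th1. Introns of Nr4a3 and Smad3, a TGF-beta signal transducer, held 11 and 1 reads each. Exon 19 of the methyltransferase gene Dnmt3a and an intron of the forkhead gene Foxp1 held 13 and 2 each. No interval of the 23 regions excluded equality.

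The list of T cell receptor and coreceptor genes stood furthest to Th1. All 6 of its regions, one for each of 6 of 30 genes, are given, a choice made after their values were seen. An intron of Plcg1, the phospholipase of receptor signalling (chr2:160576142-160576423), held 3 Treg and 4 Th1 reads, values of 1.06 and 6.72, a ratio interval of 0.0230 to 0.930. An intron of Lcp2, the adaptor SLP-76 (chr11:33972571-33972848), held 8 and 6 reads, values of 2.82 and 10.1, with an interval of 0.0851 to 0.978. Exon 5 of Cd5, an inhibitory coreceptor, held 7 and 5, an intron of the costimulatory receptor gene Cd28 held 8 and 4, and introns of the kinase gene Fyn and of Runx1 held 12 and 4 and 7 and 1. In sum there were 45 Treg and 24 Th1 reads, a log2 ratio of -1.35 (-2.09 to -0.57), and -1.02 (-1.77 to -0.25) at equal totals. Of the regions, 4 (66.7%) were 2-fold higher in Th1, against 21.0% of all regions, and none in Treg, and 2 had intervals below equality, both at the deposited scaling only. Without a test of the list these are values of 6 regions, and Runx1 stood the other way.

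Imprinted, Tfh and myeloid lists also had ratios below that of the table, but each interval as deposited included the table's -0.32. Imprinted genes (15 regions in 8 of 28 genes) held 110 Treg and 38 Th1 reads, a log2 ratio of -0.72 (-1.26 to -0.15) as deposited and -0.40 (-0.94 to 0.17) at equal totals. An intron of Grb10, an imprinted growth inhibitor (chr11:11862678-11862899), held 5 and 5 reads with an interval of 0.0483 to 0.911 as deposited, and its other region held 6 and 1. Of the 15 regions 4 (26.7%) were 2-fold higher in Th1 as deposited, against 21.0% of all regions, and none in Treg, against 17.0%. At equal totals 2 of the 15 were 2-fold higher in Th1 and 0 in Treg, against 15.2% and 22.6% of all regions. In the 4 regions of Tfh genes the promoter of Pou2af1, a lymphoid coactivator (chr9:51019757-51019994), held 7 and 6 reads with an interval of 0.0704 to 0.881 as deposited. At equal totals the intervals of both this region and the Grb10 region with 5 and 5 reads included equality, reaching 1.10 and 1.14. The Tfh list's log2 ratio was -1.19 (-2.28 to -0.0055) as deposited and -0.87 (-1.96 to 0.32) at equal totals. That of the 5 myeloid regions was -0.54 (-1.55 to 0.58), where an intron of Sfpi1, the gene of PU.1, held 5 and 5. The Pou2af1 region held 6 of the 11 Th1 reads of the Tfh list, and the Sfpi1 region 5 of the 11 of the myeloid list. Both list ratios thus rest largely on 1 region.

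Genes of other lymphocytes gave ratios whose intervals included 0 as deposited. NK, CD8 and gamma-delta T cell genes (11 regions in 5 of 18 genes) held 96 Treg and 12 Th1 reads, a log2 ratio of 0.75 (-0.12 to 1.75) and 1.07 (0.20 to 2.07) at equal totals. The 2 introns of the granzyme gene Gzmk held 9 and 8 Treg reads and none in Th1, and an intron of Sox13 held 7 and none. Zbtb16, the gene of the innate-like T cell factor PLZF, held 14 and 2, 9 and 1, 8 and 2 and 6 and 2 in 4 regions. The median of this list was 0.61 with the pseudocount and -0.25 with its 4 regions unread in Th1 set at 3 reads. The same 2 values for all regions were -0.22 and -0.52. The sign of the list's median thus rests on how unread regions are treated. B cell genes (18 regions) held 148 and 32 reads, a log2 ratio of -0.04 (-0.60 to 0.56) and a median of -0.20. In them an intron of Cd22, an inhibitory B cell receptor, held 12 and 0, whereas an intron of the adaptor gene Blnk held 8 and 4. These lists were chosen as markers of cells that a sort could carry over. Captured DNA does not give their share, and their part in the results was not tested.

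Adhesion and metabolism lists also had ratios above that of the table. Adhesion and migration genes (18 regions in 9 of 29 genes) held 157 Treg and 28 Th1 reads, a log2 ratio of 0.23 (-0.35 to 0.87) as deposited and 0.56 (-0.03 to 1.19) at equal totals. Of these regions 5 (27.8%) were 2-fold higher in Treg, against 17.0% of all regions, and none in Th1, against 21.0%. Introns of the collagen receptor gene Itga1 held 11 and 0 and 7 and 0 reads, and exon 29 of Itga5, the fibronectin receptor chain (chr15:103176274-103176593), held 15 and 1. Over all 3 of its regions Itga1 held 27 and 3 reads, so its Th1 reads lay outside these introns. Other genes of the list leaned to Th1 as deposited, among them Itga2 with 15 and 6 reads over 2 regions and Selplg with 11 and 3 in 1. The Itga1 introns and the Itga5 exon thus show only the Treg side of the list. The median changed sign here too, from 0.31 to -0.23 with the 3 unread regions at 3 reads, against -0.22 and -0.52 for all regions. Metabolic genes (24 regions) held 206 and 38 reads, a log2 ratio of 0.18 (-0.32 to 0.72) as deposited and 0.51 (0.0022 to 1.05) at equal totals. Their median likewise turned, from 0.06 to -0.25 with the 4 unread regions at 3 reads, against -0.22 and -0.52 for all regions. Cpt1a, the gatekeeper of mitochondrial fatty acid oxidation, held 11 and 0 and 8 and 0 reads in 2 introns, and exon 8 of Ppargc1a held 10 and 0. Acacb, an acetyl-CoA carboxylase gene, held 6 and 4 in the intron that leaned most to Th1.

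The remaining T cell lists lay near the table. Th17 genes had 27 regions, 14 of them in Rora, a nuclear receptor of Th17 and innate lymphoid cells. They held 208 Treg and 48 Th1 reads, a log2 ratio of -0.14 (-0.60 to 0.35). Rora varied within itself: its introns ranged from 11 and 0 reads (chr9:68894594-68894842) to 7 and 6 (chr9:68693801-68694112), the latter with an interval of 0.0704 to 0.881 at the deposited scaling. Naive T cell genes stood at -0.12, activation and NFAT genes at -0.15, effector and memory genes at -0.22, DNA methylation and chromatin genes at -0.25 and Th2 genes at -0.05, each with an interval that included both 0 and the table's -0.32. In them exon 11 of Pdk1 held 12 and 1 reads, exon 21 of the NF-kappaB gene Nfkb1 16 and 1 and an intron of the chromatin remodeller gene Arid1b 9 and 0, all toward Treg. An intron of Runx2 held 7 and 4 and one of Nfatc2 10 and 4, both toward Th1.

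**Figure D5:**
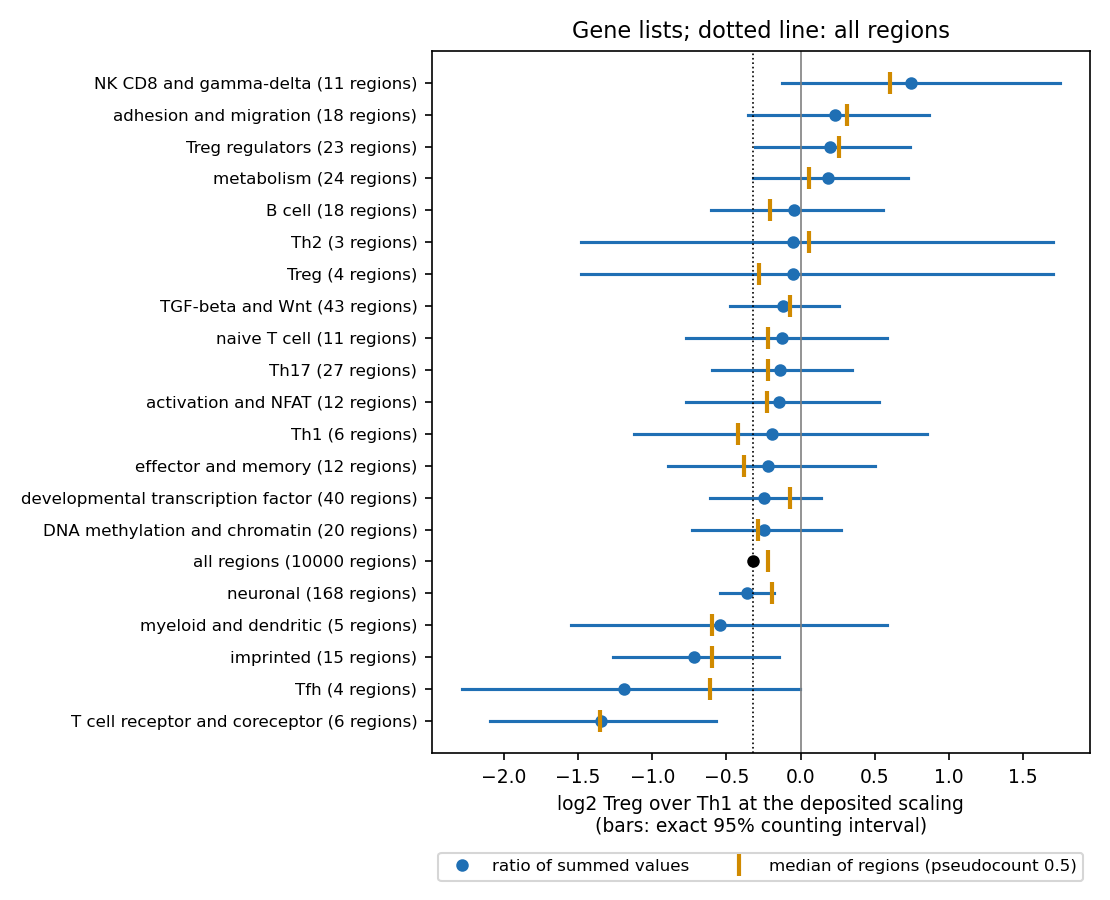
Treg to Th1 ratio of summed values (circles, log2, deposited scaling) of each gene list with its exact 95% counting interval, and the median of its regions (vertical marks). The dotted line is the ratio of all regions at -0.322, and the T cell receptor list at -1.35 is the one whose interval lies wholly below it. Intervals of the NK, CD8 and gamma-delta, Treg regulator and metabolism lists lie wholly above it. Their lower ends are -0.12, -0.31 and -0.320, the last close to the line.

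Neuronal genes formed the largest of the lists and lay nearest the table among them. All 28 had regions, 168 in all, with 1142 Treg and 308 Th1 reads, a log2 ratio of -0.36 (-0.55 to -0.18). Of these regions 30 (17.9%) were 2-fold higher in Treg and 35 (20.8%) in Th1, near the 17.0% and 21.0% of all regions, and 9 (5.36%) had intervals below equality, against 2.83%. An intron of the glutamate receptor gene Gria2 (chr3:80559590-80559903) held 4 and 6 reads, whereas an intron of Rbfox3, the NeuN antigen gene, held 12 and 0. TGF-beta and Wnt genes (43 regions) stood at -0.12 (-0.48 to 0.26). They included 9 regions (20.9%) 2-fold higher in Treg and 8 (18.6%) in Th1. In them exon 5 of Rspo4, an R-spondin gene, held 20 Treg reads and 1 Th1 read, a ratio of 4.19 with an interval from 0.671. Developmental transcription factor genes (40 regions) stood at -0.24 (-0.61 to 0.14), with an intron of Meis2 at 9 and 0. They included 5 regions (12.5%) 2-fold higher in Treg and 8 (20%) in Th1, against 17.0% and 21.0% of all regions. Rspo4 and Meis2 thus show only the Treg side of their lists.

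Families gathered by name covered more regions and moved less. Collagen and metalloprotease genes (106 regions) had a log2 ratio of -0.51 (-0.73 to -0.29). Ion channel genes (156 regions) stood at -0.14 (-0.34 to 0.07), with 31 regions (19.9%) 2-fold higher in Treg and 23 (14.7%) in Th1, against 17.0% and 21.0% of all regions. Zinc finger, solute carrier, cadherin and phosphatase families lay between -0.37 and -0.26, and predicted gene models (930 regions) at -0.29. The intervals of these 7 families included the table's -0.32.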

How the data were processed

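Per the labels' protocols, a MethylCap kit enriched methylated DNA, 250 ng entered each library and inserts between 250 and 350 bp were cut out. Bowtie 0.12.7, FastQC and the build mm9 stand in the submitters' processing notes. The sources used here do not say how regions were called, chosen, ordered or scaled. The deposited table gives a scaled signal per region and library. Every Treg and Th1 signal the authors deposited was a whole multiple of 1 constant per library (100% whole, tolerance 1e-06), so reads were recovered by division and used as counts in the added exact test.

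Ratios were formed at the deposited scaling, at equal table totals and by median of ratios, with exact Poisson and binomial 95% intervals, which cover counting error only. Size calls used log2 ratios with a pseudocount of 0.5 and a threshold of 2-fold. Class pairs used Wald intervals. The text names, per direction, the 12 regions (1 per gene) and the 8 genes with 3 or more regions whose interval bound nearest equality lies farthest from it, all regions of the Treg and Th1 lists, and the gene leaning most to each side in the other lists. Some items so selected are not reported here. Other members were chosen after their values were seen. The rule, lists and settings were chosen with earlier results of these data known. Of 5349 gene labels, 5160 matched RefSeq names of GRCm38.p6, which served for names and promoter windows. A check of promoter CpG content was void, since 57.0% of promoter regions had a window and 80% were needed. Scripts (Python 3.11.15, numpy 2.4.6, scipy 1.17.1, pandas 2.3.3) were tested on simulated data.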

Additional observations from a re-analysis of the deposited data

Results flagged for a closer look

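In the 4 regions that neither the Treg nor the Th1 library read, the naive T cell library, which the comparison does not use, held 19 reads in all. These lay in introns of Serpinb12 (7 reads), Slc25a21 (6), Klhl1 (4) and Cntn1 (2). They were singled out because a signal appeared there in data outside the comparison. The worth of a read differs between libraries. These naive reads therefore cannot be set directly against the 3 reads that a count of 0 allows in Treg or Th1. Apart from the mean naive reads given above by Th1 read class, no comparison with naive cells was made.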

How the results depend on the processing

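With equal table totals, the count of regions called by interval was 9 in Treg and 159 in Th1, in place of 0 and 283, and that of genes 13 and 17, in place of 3 and 70. The log2 ratio became 0.037 for promoters, 0.073 for exons, -0.019 for introns, -0.069 for chromosome X, 0.00134 for autosomes, 0.11 for the shortest regions and -0.078 for the longest (of 4 length classes). With median of ratios, 1085 regions were 2-fold higher in Th1, 18 and 125 were called by interval, 28 and 10 genes were called, and the classes stood at 0.16, 0.20 and 0.11. A pseudocount of 5 left 18 regions 2-fold higher in Treg and 171 in Th1. A threshold of 1.5 on the log2 scale left 1169 in Treg and 926 in Th1, which turns the split, and one of 1.5-fold gave 2627 and 3517. Requiring at least 10 reads (4821 regions) left 770 and 601 by size and 86 in Th1 by interval, with classes at -0.16, -0.17 and -0.21. Medians of region ratios were -0.13, -0.13 and -0.22. The exact test adjusted over all regions called 0. Genes with 5 or more regions (338) gave 1 and 37 calls, and all genes (5377) gave 5 and 210. The sides of the classes thus depend on the scaling. None of the 12 regions and 8 genes selected per side changed side under equal totals or median of ratios. Both settings shift ratios towards Treg, by 0.32 and 0.45 on the log2 scale, and these items were selected as the extremes. Their unchanged sides were therefore set by the selection and are no check of them. Merging adjacent regions (9842 units) kept all 4 counts of regions within 1.5 times. No paired analysis was possible because each population has 1 library, and for the same reason none could be left out. The alternatives for promoter CpG content were not run, since that check was void. Depth limits the Treg side most: 1 Th1 read is worth 1.68, and 12.3% of regions had none.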
